A study of Mus musculus with 2 samples.

Results

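Mir23a, Mir27a and Mir24-2 on chromosome 8, and Mir23b, Mir27b and Mir24-1 on chromosome 13, form a pair of paralogous microRNA (miRNA) clusters, here called the Mir23a cluster and the Mir23b cluster. These 6 genes of the 2202 miRNA genes in the count files were picked by their GENCODE M21 symbols, 3 in each cluster, and all 6 had counts in both libraries. The samples were whole adrenal glands of male B6CASTF1/J mice aged 2 months, first-generation hybrids of a laboratory line and a castaneus line, with no treatment and no engineered allele given in the labels. There was 1 group of 2 libraries, replicate 1 from animal 3 and replicate 2 from animal 4 and both labelled as biological replicates. Small RNA of under 30 bases was sequenced from total RNA. No second tissue, age or treatment was compared. The values thus show the levels of reads that could be assigned to 1 gene and how far the animals differed in them. Each animal gave 1 library, so differences between the animals cannot be told apart from differences between library preparations.

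Each of these clusters is transcribed as 1 precursor that is cut into 3 hairpins, and each hairpin can give a 5p and a 3p mature miRNA. A mature miRNA finds its messenger RNAs mainly through its seed, bases 2 to 8. The clusters are best known from blood vessels, where they act on endothelial growth. miR-23 represses glutaminase in human cells, miR-27 restrains fat cell formation and lipid genes, and miR-24 has been reported in human adrenocortical cells to repress the enzymes that complete aldosterone and cortisol synthesis, CYP11B2 and CYP11B1.

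The 3p products are shown because they decide which reads can be told apart between the clusters. Capitals mark the seed, and the sequences are those of RefSeq for GRCm38.p6.
miR-23a-3p: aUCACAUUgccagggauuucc
miR-27a-3p: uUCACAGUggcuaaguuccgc
miR-27b-3p: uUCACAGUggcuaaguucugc
miR-24-3p: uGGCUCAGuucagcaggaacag
The products miR-27a-3p and miR-27b-3p had the same seed and were identical at 20 of 21 bases, with the single substitution C19U (the base of miR-27a-3p, its position from the 5′ end, the base of miR-27b-3p). miR-24-3p was identical at both loci. The seeds of miR-23a-3p and miR-27a-3p differed at 1 of 7 bases (U7G). The remaining 3p product, miR-23b-3p, had no entry in the reference sequences used, so it is not shown and was not compared with miR-23a-3p.

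The 5p products are shown because they are the arms that separate most of the paralogs.
miR-23a-5p: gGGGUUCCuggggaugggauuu
miR-23b-5p: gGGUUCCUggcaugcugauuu
miR-27a-5p: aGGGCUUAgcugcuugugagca
miR-27b-5p: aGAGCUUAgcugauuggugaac
miR-24-2-5p: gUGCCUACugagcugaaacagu
miR-24-1-5p: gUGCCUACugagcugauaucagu
miR-27a-5p and miR-27b-5p differed at 8 of 22 bases, 1 of them in the seed (G3A). miR-24-2-5p and miR-24-1-5p shared their seed and their first 16 bases. The counts are given per gene, so the share of each arm is unknown.

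The length of a read decided whether it could be assigned to 1 gene. Among the hairpins of all annotated miRNA genes, on either strand, a read from the 5′ end of miR-23a-3p, miR-27a-3p or miR-27b-3p matched a single locus from 19 bases on. For the 5p arms of Mir23a, Mir23b, Mir27a and Mir27b the same limit lay between 9 and 11 bases, and for the 5p arms of Mir24-2 and Mir24-1 at 17 bases. No length of miR-24-3p matched a single locus. The Mir24 hairpins are printed to show the stretch that their reads share, in capitals.
Mir24-2 hairpin: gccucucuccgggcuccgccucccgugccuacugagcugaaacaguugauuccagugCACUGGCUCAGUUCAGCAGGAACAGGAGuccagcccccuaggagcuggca
Mir24-1 hairpin: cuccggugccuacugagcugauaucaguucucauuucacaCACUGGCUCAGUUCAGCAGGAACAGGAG
This shared run was 28 bases long and held all of miR-24-3p. Reads that aligned to several places were not counted at any gene, and in replicate 1 they were 39.4% of what aligned, in replicate 2 41.2%. The longest run shared by the Mir23 hairpins was 20 bases, as was that of the Mir27 hairpins. A read that lies within a shared run has no single place among these hairpins, which limits the counts of the Mir24 genes most.

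Both clusters lie on the plus strand, in the order Mir23, Mir27, Mir24 (mm10, GENCODE M21). On chromosome 8, Mir23a spans 84208518 to 84208592, Mir27a 84208672 to 84208758 and Mir24-2 84208815 to 84208921, a cluster of 404 bases. It lies outside other annotated genes of its strand, except that the last 2 bases of Mir24-2 reach into an exon of Gm26532, a long non-coding RNA gene. On chromosome 13, Mir23b spans 63300484 to 63300557, Mir27b 63300712 to 63300784 and Mir24-1 63301208 to 63301275, a cluster of 792 bases. It lies within Aopep (2010111I01Rik in GENCODE M21), the gene of aminopeptidase O. No annotated exon of Aopep overlaps Mir23b. Mir27b lies within an exon of a transcript marked for nonsense-mediated decay, and Mir24-1 within exons of such a transcript, of a processed transcript and of one with a retained intron. Introns of Fancc, a DNA repair gene, cover the same region on the other strand. The gaps between neighbours were 79 and 56 bases in the Mir23a cluster against 154 and 423 bases in the Mir23b cluster. An annotated miRNA gene of the other strand covers each Mir24 gene, Mir3074-2 in the Mir23a cluster and Mir3074-1 in the Mir23b cluster.

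**Figure D1:**
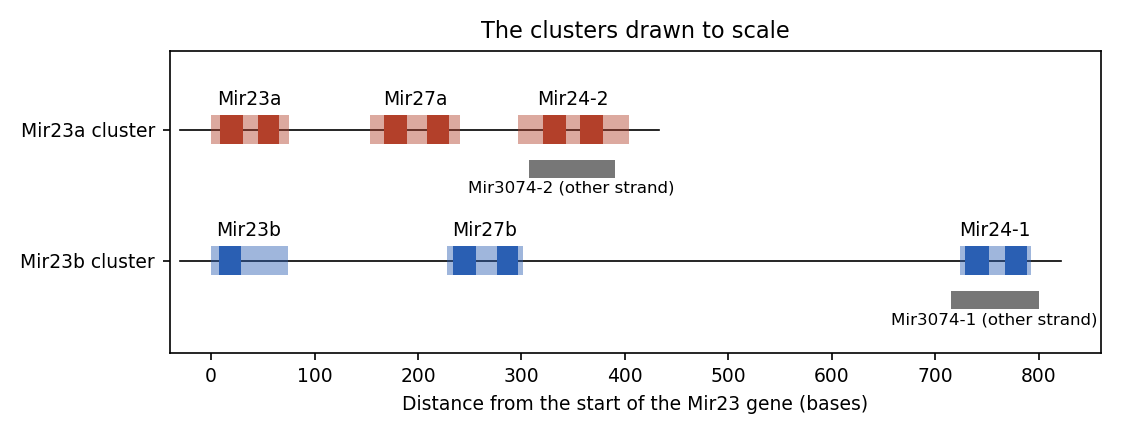
Map of both clusters to scale, with the distance from the start of Mir23a or Mir23b in bases on the x axis. Pale boxes are hairpins, dark boxes the mature arms in the RefSeq sequences used (without miR-23b-3p), and grey boxes are miRNA genes of the other strand. Mir24-1 lies 423 bases after Mir27b, while Mir24-2 lies 56 bases after Mir27a.

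Replicate 1 held 5752428 counts at miRNA genes and replicate 2 held 3333149, both on the gene's strand, and a count of 0 allows up to 0.522 and 0.900 CPM, where CPM is a gene's share of these counts scaled to 1000000. Intervals below are 95% Clopper-Pearson intervals of counting error in 1 library, and they take reads without molecular identifiers as independent. A read covers a whole mature miRNA, so counts were not divided by hairpin length. In whole glands, fewer cells of a type and less RNA per cell cannot be told apart. None of the listed miRNAs defines the adrenal gland by itself. The neuroendocrine markers Mir375 and Mir7b together had 72445 CPM (replicate 1) and 51056 CPM (replicate 2), and the endothelial Mir126a had 69154 and 65133 CPM. Of the neuroendocrine markers, Mir375 (68780 and 46236 CPM) was higher in replicate 1 and Mir7b (3666 and 4819 CPM) was lower there. The smooth muscle genes Mir143 and Mir145a summed to 32758 and 33318 CPM. The 3 erythroid genes differed far more, at 22813 CPM for replicate 1 and 901 CPM for replicate 2. The liver marker Mir122 (690 and 1331 CPM) and the myeloid marker Mir223 (36.7 and 159 CPM) were lower in replicate 1. The 3 muscle genes together had 708 CPM (replicate 1) and 453 CPM (replicate 2), with Mir206 (81.7 and 389 CPM) lower in replicate 1, and Mir499 (423 and 23.1 CPM) and Mir208b (204 and 40.8 CPM) higher there. The 4 kidney genes summed to 92.5 and 137 CPM and the 5 epithelial genes to 58.2 and 50.7 CPM, and 5 of the 6 neuronal genes were at 0 in both libraries.

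The genes of these clusters took 7.44% of the miRNA counts in replicate 1 (7.42 to 7.46) and 8.88% in replicate 2 (8.85 to 8.91), or 8.16% ± 1.02 (mean ± SD, n = 2). The Mir23a cluster held 3.78% in replicate 1 and 4.60% in replicate 2. The Mir23b cluster held 3.65% in replicate 1 and 4.28% in replicate 2. Summed, the Mir23a cluster thus exceeded the Mir23b cluster 1.04-fold in replicate 1 (1.03 to 1.04) and 1.07-fold in replicate 2 (1.07 to 1.08). The summed counts of the clusters were thus nearly the same in both animals, without reads confined to the shared run of the Mir24 genes. Nearly all of these counts came from Mir23a and Mir23b, which together held 7.67% ± 0.811 of the miRNA counts.

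Along each cluster the Mir23 gene was highest, the Mir27 gene lower and the Mir24 gene lowest, in both libraries. Mir23a had 212662 counts (36969 CPM) in replicate 1 and 147777 counts (44336 CPM) in replicate 2. Mir23b had 195496 counts (33985 CPM) in replicate 1 and 126964 counts (38091 CPM) in replicate 2. By mean CPM they stood at ranks 8 and 9 among all miRNA genes, next to each other. Mirlet7d, directly above Mir23a at 47334 and 34789 CPM, was higher than Mir23a in replicate 1 and lower in replicate 2, so that order is not settled. Mir10a, directly below Mir23b, was lower than it in both animals, at 32113 and 34961 CPM.

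The Mir27 genes were counted at a far lower level, and here the Mir23b cluster held the higher paralog. Mir27a had 4367 counts (759 CPM) in replicate 1 and 4478 counts (1343 CPM) in replicate 2. Mir27b had 14305 counts (2487 CPM) in replicate 1 and 15439 counts (4632 CPM) in replicate 2. Their mean ranks were 73 and 41. For Mir27a the neighbour above, Mir134, was higher in replicate 1 and lower in replicate 2, and the neighbour below, Mir122, was lower in both. Mir28a and Mir130a, the neighbours of Mir27b, were both higher than Mir27b in replicate 1 and lower in replicate 2.

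The Mir24 genes were the lowest of each cluster, with the limit that reads confined to their shared run could not be counted. Mir24-2 had 658 counts (114 CPM) in replicate 1 and 1010 counts (303 CPM) in replicate 2. Mir24-1 had 300 counts (52.2 CPM) in replicate 1 and 205 counts (61.5 CPM) in replicate 2. Their mean ranks were 150 and 212. Each of the genes next to them in mean level, Snord43 and Mir101a for Mir24-2 and Mir204 and Mir450b for Mir24-1, was above its partner in 1 animal and below it in the other. How much miR-24-3p the gland holds cannot be read from these counts. In the count files, 4 other genes whose mature product has the seed of miR-24-3p (Mir5124b, Mir6369, Mir6410 and Mir6413) had 0 counts in both libraries.

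**Figure D2:**
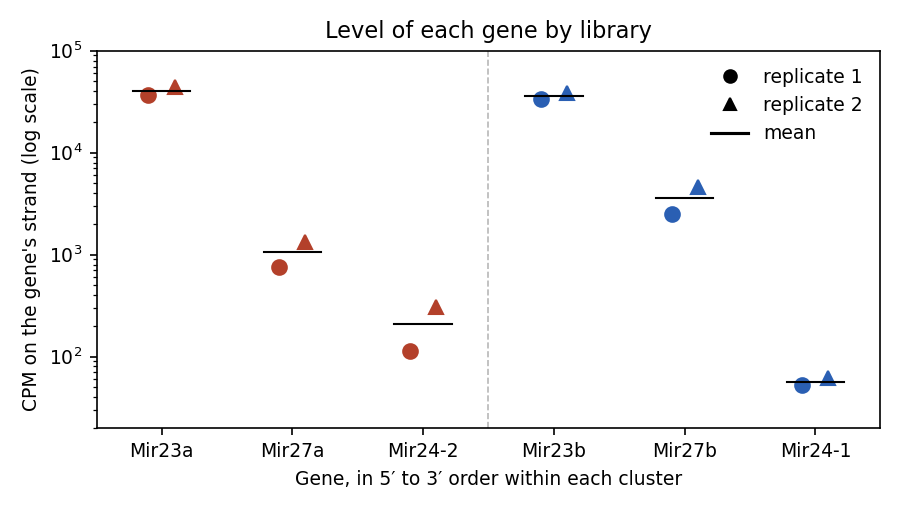
CPM of each gene on a log axis, with the Mir23a cluster (red) left of the Mir23b cluster (blue); circles are replicate 1, triangles replicate 2 and bars their mean. Mir23a and Mir23b lie between 33985 and 44336 CPM, and each later gene of a cluster lies lower than the one before it.

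Within a cluster the genes were counted in very unequal parts. Mir23a made up 97.7% of the Mir23a cluster in replicate 1 and 96.4% in replicate 2, with Mir27a at 2.01% and 2.92% and Mir24-2 at 0.302% and 0.659%. Mir23b made up 93.0% of the Mir23b cluster in replicate 1 and 89.0% in replicate 2, with Mir27b at 6.81% and 10.8% and Mir24-1 at 0.143% and 0.144%. Among counted reads, the Mir23b cluster thus held a larger part of its Mir27 gene and a smaller part of its Mir24 gene than the Mir23a cluster in both animals. The parts leave out reads confined to the shared run of the Mir24 genes, so the full composition of either cluster is unknown.

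The steps between neighbours showed the same order. Mir23a exceeded Mir27a 48.7-fold in replicate 1 (47.3 to 50.2) and 33.0-fold in replicate 2 (32.0 to 34.0). Mir23b exceeded Mir27b 13.7-fold in replicate 1 (13.4 to 13.9) and 8.22-fold in replicate 2 (8.09 to 8.36). Both steps were larger in replicate 1, beyond counting error. The steps to the Mir24 genes hold for counted reads only, without reads confined to the shared run of these genes. Mir27a exceeded Mir24-2 6.64-fold in replicate 1 (6.11 to 7.21) and 4.43-fold in replicate 2 (4.14 to 4.75). Mir27b exceeded Mir24-1 47.7-fold in replicate 1 (42.5 to 53.6) and 75.3-fold in replicate 2 (65.6 to 86.9). The last step was the only one of the 4 that was smaller in replicate 1, with a mean log2 difference of 5.90 ± 0.47 (SD, n = 2). The mean log2 difference was 5.32 ± 0.40 for Mir23a over Mir27a, 3.41 ± 0.52 for Mir23b over Mir27b and 2.44 ± 0.41 for Mir27a over Mir24-2.

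Between the clusters, the paralogs of each kind differed in their own way. Mir23a exceeded Mir23b 1.09-fold in replicate 1 (1.08 to 1.09) and 1.16-fold in replicate 2 (1.16 to 1.17). On the log2 scale this was 0.17 ± 0.07, a small difference of the same sign in both animals. Mir27a was lower than Mir27b in both, with a log2 difference of -1.71 in replicate 1 (-1.76 to -1.66) and -1.79 in replicate 2 (-1.83 to -1.74), and the intervals of the libraries overlapped. Mir24-2 exceeded Mir24-1 2.19-fold in replicate 1 (1.91 to 2.52) and 4.93-fold in replicate 2 (4.24 to 5.75), the least even of these ratios between the animals. The log2 difference of the Mir24 paralogs was 1.71 ± 0.82, again without reads confined to their shared run.

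Other miRNA genes give the scale for these differences. Genes with a letter after a shared number and no copy number, each with a mean of 10 or more counts, gave 48 pairs, and the median log2 difference between the higher and the lower of a pair was 1.73 in replicate 1 and 1.84 in replicate 2. Mir27b over Mir27a stood at rank 25 of these pairs by the size of the mean log2 difference and Mir23a over Mir23b at rank 44. The largest differences were those of Mir378a over Mir378d (10.79 ± 0.51), Mir378a over Mir378c (10.58 ± 0.10) and Mir7b over Mir7j (6.43 ± 0.25). The smallest by size were Mir181c over Mir181d (-0.00 ± 0.32), Mir30e over Mir30d (0.07 ± 1.07) and Mir302a over Mir302d (0.13 ± 0.05). The order of Mir181c and Mir181d, and that of Mir30e and Mir30d, turned between the animals. That of Mir302a and Mir302d is not settled, at 71 against 63 counts in replicate 1 and 15 against 14 in replicate 2. By how much a pair's difference changed between the animals, Mir27b over Mir27a was at rank 47 and Mir23a over Mir23b at rank 45 of 48. Both changes were thus among the smallest. The changes include counting error, which is larger for pairs with fewer counts, and the ranks were not adjusted for it.

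Unequal counts within a cluster were common. With the Mir24 genes included, whose shared reads could not be counted, both clusters had large differences, while without them the Mir23b cluster was close to the median. Joining miRNA genes of 1 strand within 10 kb of each other gave 45 clusters with at least 2 genes at a mean of 10 or more counts. Their highest member exceeded the lowest by a median of 3.98 in replicate 1 and 4.05 in replicate 2 on the log2 scale. The Mir23b cluster was at rank 3 by this difference (9.31 ± 0.05) and the Mir23a cluster at rank 5 (7.76 ± 0.81). Of the other clusters, those led by Mir127 (11.81 ± 0.18), Mir322 (11.11 ± 0.00) and Mir379 (9.23 ± 0.68) had the largest differences within themselves, and those of Mir302a (0.13 ± 0.05), Mir194-2 (0.12 ± 0.50) and Mir181c (-0.00 ± 0.32) the least. Without the genes whose hairpins share 22 or more bases with another locus, both Mir24 genes among them, 29 clusters were left, with a median log2 difference of 3.53 in replicate 1 and 3.04 in replicate 2. The Mir23a cluster was then at rank 4 (5.32 ± 0.40), with Mir27a as its lowest member, and the Mir23b cluster at rank 14 (3.41 ± 0.52), with Mir27b as its lowest. This alternative was chosen after the data were seen.

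**Figure D3:**
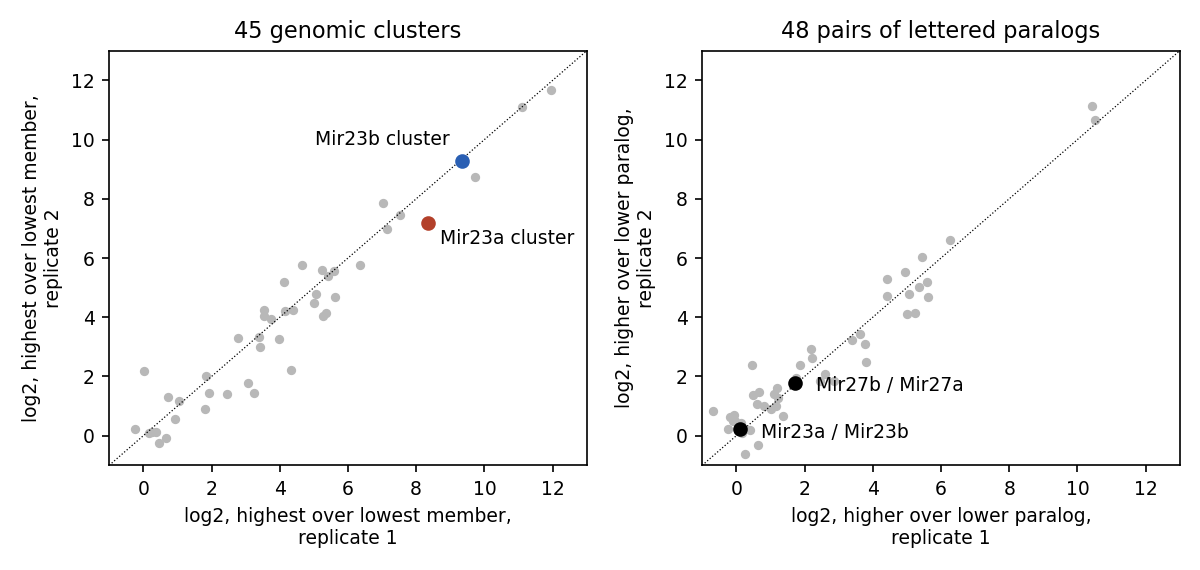
Left, the log2 difference between the highest and the lowest member of each of 45 genomic clusters, replicate 1 on the x axis and replicate 2 on the y axis; right, the same for the higher over the lower gene of 48 pairs of lettered paralogs. Coloured points are the Mir23a cluster (red) and the Mir23b cluster (blue), black points the pairs Mir23a over Mir23b and Mir27b over Mir27a, and the dotted line marks equal values. Both black points lie close to the line.

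The animals were compared per gene by an exact binomial test on counts, with TMM scaling and Benjamini-Hochberg adjustment over 389 genes with a mean of 10 or more counts. With 1 library a side, it compares these libraries and not conditions. It called 5 of the 6 genes, 4 lower and 1 higher in replicate 1, while of all genes tested 59.1% were called, 30.8% as higher and 28.3% as lower in replicate 1. Most genes tested were called, so a count over 6 genes sets them apart from no others. The share called depended on the filter, at 30.9% of 750 genes with no filter on low counts and 73.4% of 286 genes with a mean of 50 counts. The median log2 ratio of replicate 1 over replicate 2 was -0.34 over the 6 genes and 0.01 over all genes tested. Median sizes without the sign were 0.34 and 0.40.

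The Mir27 genes of both clusters were lower in replicate 1 by a like amount. Mir27a had a log2 ratio of -0.62 (SE of counting 0.03), with an adjusted p of 1.30e-90 in the exact binomial test, and Mir27b one of -0.70 (SE 0.02), with an adjusted p too small for the computer to represent. Mir23a (-0.06, SE 0.005) and Mir23b (0.03, SE 0.005) passed the exact binomial test with ratios close to 0, at an adjusted p of 4.80e-37 for Mir23a and 7.18e-11 for Mir23b. With total counts in place of TMM, Mir23b was lower in replicate 1, at -0.16. Mir24-2 had the largest difference of the 6 (-1.21, SE 0.07), at rank 41 of 389 genes by size and an adjusted p of 1.67e-63 in the exact binomial test. For Mir24-1 the log2 ratio was -0.04 (SE 0.13), with an adjusted p of 0.860 in the exact binomial test. The Mir24 paralogs thus differed between the animals by unlike amounts, while the ratios of the Mir27 paralogs, and those of the Mir23 paralogs, lay within 0.1 of each other on the log2 scale.

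These calls rest on counting error alone. The dispersion used next was estimated from the same 2 libraries that edgeR's exact test then compared, so their differences enter it. Few calls could result, and that test cannot decide whether the calls hold beyond counting error. With the common dispersion of these libraries (a biological coefficient of variation of 0.361), edgeR's exact test called none of the 6 genes, each at an adjusted p of 1, and 4 of the 389 genes tested. Its unadjusted p was lowest for Mir24-2, at 0.114, and none of the 6 was under 0.05. Scaling by total counts in place of TMM moved the median of all genes to -0.19 and that of the 6 genes to -0.54. The erythroid genes (22813 CPM for replicate 1, 901 CPM for replicate 2) enter the total that CPM are divided by. Without them in the total, the 6 genes held 8.25% ± 0.901 of the counts, against 8.16% ± 1.02 with them. The listed markers went both ways, with Mir122, Mir223, Mir206 and Mir7b lower in replicate 1 and Mir375, Mir499 and Mir208b higher there. Any other part of blood, liver, myeloid or muscle RNA in the differences of the 6 genes was not tested.

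**Figure D4:**
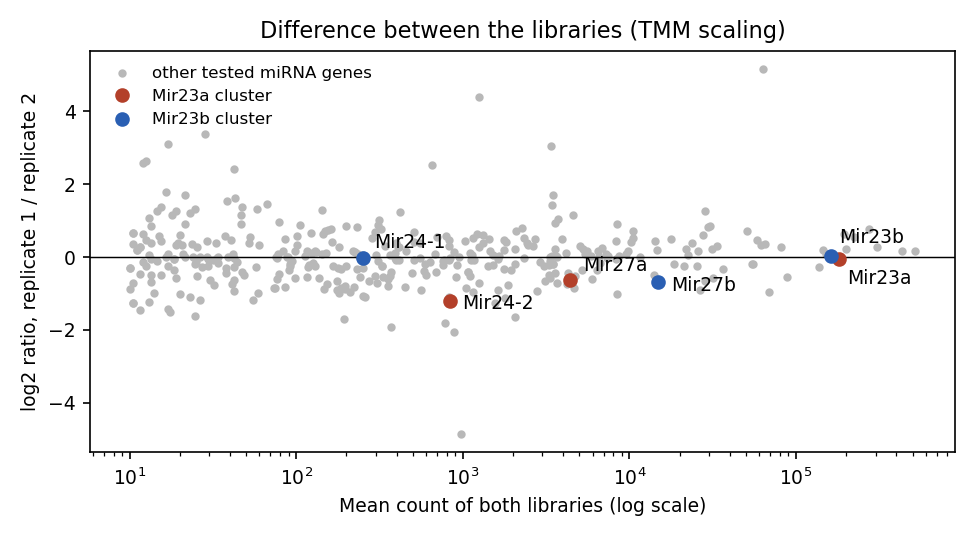
Log2 ratio of replicate 1 over replicate 2 after TMM scaling against the mean count of both libraries on a log axis, for 389 tested miRNA genes (grey) with the Mir23a cluster in red and the Mir23b cluster in blue. Mir23a and Mir23b lie close to 0 (-0.06 and 0.03), Mir27a and Mir27b side by side at -0.62 and -0.70, and Mir24-2 lowest at -1.21.

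Counting by strand decided whether the Mir24 genes had any counts. In the column for both strands Mir24-2 and Mir24-1 had 0 counts in both libraries, as reads that lie in a Mir24 gene and also in Mir3074-2 or Mir3074-1 were left out there as ambiguous. The values of Mir23a, Mir27a, Mir23b and Mir27b were the same in both columns, and none of these genes had a read on the other strand. Mir3074-2, on the other strand of Mir24-2, had 1 read of its own strand in replicate 1 and 0 in replicate 2.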

How the data were processed

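Small RNA of under 30 bases from total RNA of whole adrenal glands was sequenced, with 1 library for each of 2 mice. The deposited counts are whole numbers of reads per miRNA gene on mm10 with GENCODE M21, per the text files that describe each library, with the aligner and trimming not given in the sources used here. From the values, the columns are reads on both strands, on the gene's strand (used here) and on the other strand. The leading rows name no gene and held 66.2% and 69.0% of the reads in replicates 1 and 2; they stayed out of totals and tests. Symbols, positions and hairpins came from GENCODE M21 and mature sequences from RefSeq (GRCm38.p6).

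CPM are counts over the total at miRNA genes. Log2 ratios had 0.5 counts added, and a count of 0 was read as up to 3 counts. All samples belong to 1 group, so edgeR's quasi-likelihood test had no residual degrees of freedom. The libraries were compared by a two-sided exact binomial test over all 389 genes with a mean of 10 or more counts, with an adjusted p threshold of 0.05. The test was also run on libraries simulated with counting error alone, which cannot show how it behaves with variation between animals. The members and lists were chosen with earlier results of these data known. Copies were searched among annotated hairpins, not in the genome. Named besides the members are genes that overlap them, their neighbours by mean CPM, the 3 largest and smallest differences of paralogs and of other clusters, the listed markers and, chosen after their values were seen, genes that share a seed. Tools were Python 3.11.15, SciPy 1.17.1, pandas 2.3.3, Biopython 1.88, matplotlib 3.10.9, R 4.3.3, edgeR 4.0.16 and DESeq2 1.42.0.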

Additional observations from a re-analysis of the deposited data

Results flagged for a closer look

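Reads on the opposite strand, which enter no comparison above, were above the limit that a count of 0 allows at 1 of the 6 genes. Mir24-1 had 39 such reads in replicate 1 and 29 in replicate 2. They made up 11.5% (8.31 to 15.4) and 12.4% (8.46 to 17.3) of the reads counted at this hairpin. These opposite-strand reads are the counts of Mir3074-1, at 6.78 and 8.70 CPM. Reads confined to the run shared with Mir24-2 could not be counted, so the part of opposite-strand reads among all reads of this hairpin is unknown. Mir24-2 had 1 opposite-strand read in replicate 1 and 0 in replicate 2.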

How the results depend on the processing

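Levels, shares, log2 ratios within a library, median spreads and numbers of called genes were tallied together. Of these values, 78 kept their size under an alternative and 27 did not. The log2 ratios of the 6 genes between the libraries were tallied apart, with 28 kept, 5 no longer called and 1 reversed. The 78 include values with a library left out. With n = 2 such a value always lies within the SD, so it could not count as changed. With all reads as the denominator, the mean CPM were 13127 for Mir23a, 337 for Mir27a, 66.3 for Mir24-2, 11654 for Mir23b, 1139 for Mir27b and 18.4 for Mir24-1, and the shares were 1.35% for the Mir23a cluster, 1.28% for the Mir23b cluster and 2.63% for all 6 genes, as the denominator is larger. With the counts of both strands, Mir23a had 48235 CPM, Mir23b 42788 CPM, and Mir24-2 and Mir24-1 had 0 CPM; the shares were 4.95%, 4.70% and 9.65% for the Mir23a cluster, the Mir23b cluster and all 6 genes. Against 3 counts per library, the mean log2 difference was then 10.53 for Mir27a over Mir24-2 and 12.27 for Mir27b over Mir24-1. The 0 counts come from leaving out ambiguous reads, so these values set no limit on either difference. No ratio of Mir24-2 over Mir24-1 could be given with both strands. Pseudocounts, erythroid genes left out of the total and TMM sizes moved no level or ratio beyond its SD.

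Leaving out replicate 1 or replicate 2 leaves the value of the other library, given above; the share of all 6 genes then ran between 7.44% and 8.88%. The test between the libraries called 230 of 389 genes, 120 higher and 110 lower in replicate 1. Total counts called 170 as lower, and turned Mir23b to -0.16. With a common dispersion edgeR called 4, of which 3 were higher and 1 was lower, and the 5 calls among the 6 genes were lost at an adjusted p of 1. That dispersion came from these same libraries, so the loss cannot decide whether the calls hold beyond counting error. The other scalings and filters on low counts kept the calls of the 6 genes. The median log2 spread within clusters, 4.01, was 3.53 with 3 kb, 4.28 with a mean of 1 count and 3.28 without shared hairpins, an alternative chosen after seeing the data. That of paralogs, 1.79, was 2.74 with a mean of 1 count and 1.50 without shared hairpins; in these alternatives fewer or more genes entered. No paired analysis was possible because there is 1 group. Depth gave 0.522 CPM in replicate 1 and 0.900 CPM in replicate 2 as the limit for a count of 0, below each of the 6 genes.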
